A study of Mus musculus with 18 samples.

Results

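The p53 target and GADD45 growth-arrest genes described here are 10 genes, Cdkn1a, Mdm2, Ccng1, Btg2, Sesn1, Phlda3, Trp53inp1, Gadd45a, Gadd45b and Gadd45g. They were chosen by symbol, and each is 1 row of 21441 in both expression tables. All 10 passed the filter of a mean FPKM above 1 (expression per kilobase of transcript, scaled by the depth of the library, the deposited unit) in both tables. The study asked how moringa isothiocyanate-1 (MIC-1), an isothiocyanate from Moringa oleifera seeds, alters the transcriptional response to lipopolysaccharide (LPS), the endotoxin of Gram-negative bacteria. RNA-seq was available for 18 libraries, with 3 in each of 3 treatments of RAW264.7 cells, a murine macrophage line, and 3 in each of 3 treatments of liver from wild type C57BL/6 mice. The cultures were a solvent control, LPS, and LPS with 10 μM MIC-1. The mice, all male, were gavaged over 3 days with vehicle (10% DMSO) in the control and LPS groups or with 80 mg/kg MIC-1 in that vehicle, then injected intraperitoneally with saline (control) or LPS at 10 mg/kg, and livers were taken at 16 h. The dose and time of LPS in the sequenced cultures and the age of the mice were not given in the sources used here. RAW264.7 is a single transformed line, so its libraries stand for cells of that line and not for animals.

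p53 is a transcription factor that is held at a low level by the ubiquitin ligase Mdm2 and accumulates after DNA damage and other stress. Its targets stop the cell cycle (Cdkn1a, Btg2, Ccng1), feed back on p53 or on growth signalling (Mdm2, Phlda3, Trp53inp1) and restrain nutrient signalling (Sesn1). The GADD45 proteins are small stress sensors that bind cyclin-dependent kinase complexes and MAP kinase kinase kinases. Gadd45a is a p53 target, whereas Gadd45b is best known as an NF-κB target in cells exposed to inflammatory stimuli.

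The sequence before the transcription start was examined for the members because these genes are grouped by the factor that controls them. RefSeq (GRCm38.p6) gave 11 starts for 9 of the 10 members, and no entry was matched for Trp53inp1. The 250 bases before each start were searched on both strands for a p53 half-site (10 bases), a kappaB motif (10 bases), TGANTCA, TGACNNNGC and TATAAA, and no match overlapped another. A p53 half-site lay before a start of 5 of these 9 genes (Cdkn1a, Mdm2, Ccng1, Sesn1 and Gadd45a), against 7.13% of all 32851 mouse promoter windows of that length. Cdkn1a and Sesn1 each had 2 starts, and the half-site was before the first of Cdkn1a and the second of Sesn1 only. The member count is thus per gene and the share per window, and the members were chosen as p53 target and GADD45 genes. The kappaB motif and TGANTCA, found in 7.25% and 6.75% of windows, were in none of the members' windows. Sites outside these 250 bases, or spelled otherwise than the motifs used, were not searched for. TGACNNNGC, found in 10.2% of windows, was before Gadd45g, and TATAAA, found in 12.4%, was before Gadd45b and Gadd45g. Btg2 and Phlda3 had no match to any of these letters in the windows searched. The windows below belong to the cell-cycle inhibitor Cdkn1a, to the p53 ligase Mdm2 and to the 3 GADD45 genes, whose levels set the main contrasts reported here. The Cdkn1a window is that of its first start, and the window of its second start had no match to any of the motifs. Capitals mark the p53 half-sites in Cdkn1a (73 to 64 and 51 to 42 bases before the first start), Mdm2 (186 to 177) and Gadd45a (40 to 31). In Gadd45b and Gadd45g they mark TATAAA (46 to 41 and 27 to 22 bases before the start), and in Gadd45g also the reverse complement of TGACNNNGC (168 to 160). Each window is written 5′ to 3′ on the strand of its gene.
Cdkn1a, chr17:29090729-29090978, plus strand: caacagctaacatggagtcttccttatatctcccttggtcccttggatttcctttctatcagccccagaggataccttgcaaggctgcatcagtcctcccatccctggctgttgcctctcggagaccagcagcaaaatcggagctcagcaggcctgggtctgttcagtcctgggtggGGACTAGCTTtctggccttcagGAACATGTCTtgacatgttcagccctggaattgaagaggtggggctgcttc
Mdm2, chr10:117710759-117711008, minus strand: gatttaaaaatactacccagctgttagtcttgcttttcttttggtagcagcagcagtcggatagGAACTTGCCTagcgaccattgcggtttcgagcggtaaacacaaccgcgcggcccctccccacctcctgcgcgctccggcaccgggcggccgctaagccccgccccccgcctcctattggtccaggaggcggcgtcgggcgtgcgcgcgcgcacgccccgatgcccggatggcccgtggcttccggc
Gadd45a, chr6:67037408-67037657, minus strand: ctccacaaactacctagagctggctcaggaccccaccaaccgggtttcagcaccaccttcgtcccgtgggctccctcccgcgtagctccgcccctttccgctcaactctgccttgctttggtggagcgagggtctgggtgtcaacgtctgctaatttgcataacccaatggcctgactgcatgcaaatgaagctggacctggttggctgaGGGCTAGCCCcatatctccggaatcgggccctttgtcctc
Gadd45b, chr10:80929841-80930090, plus strand: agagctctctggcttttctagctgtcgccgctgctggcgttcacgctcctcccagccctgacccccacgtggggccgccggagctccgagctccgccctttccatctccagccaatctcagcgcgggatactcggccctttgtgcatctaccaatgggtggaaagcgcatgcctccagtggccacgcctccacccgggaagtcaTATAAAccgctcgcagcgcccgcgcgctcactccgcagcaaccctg
Gadd45g, chr13:51846425-51846674, plus strand: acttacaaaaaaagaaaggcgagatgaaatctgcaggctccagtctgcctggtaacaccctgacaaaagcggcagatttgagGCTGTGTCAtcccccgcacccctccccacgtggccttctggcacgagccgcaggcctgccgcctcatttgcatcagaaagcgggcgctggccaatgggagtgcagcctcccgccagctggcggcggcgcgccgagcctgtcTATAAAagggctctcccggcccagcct

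The libraries are numbered by their order in each table within a treatment, since the columns carry no replicate number. In macrophages, the library labelled LPS that comes second (LPS library 2) stood apart from the other LPS libraries. The summed FPKM of 8 LPS response genes was 757 there, against 28500 and 29300 in LPS libraries 1 and 3 and 389 to 743 in the control libraries, and all 10 members stood at 0.941 to 1.07 times their level in control library 2. The study's own macrophage analysis used fewer LPS libraries than the table holds, and whether LPS library 2 carries the right label was not tested. The macrophage fits were therefore made with all 9 libraries and without LPS library 2, and both are given for the members. Libraries 1 and 3 were also closer to each other than to library 2. Over genes with an estimated 500 to 2000 reads, their squared log difference was 1.47 to 2.15 times the sampling variance in the 3 macrophage treatments, against 7.56 to 12.8 times for control and LPS+MIC-1 pairs that held library 2, and 1.74 times for control library 2 against LPS library 2. In liver the ratio was 6.35 for LPS libraries 1 and 3 and 2.08 for LPS+MIC-1 libraries 1 and 3. Pairs within a treated group that held library 2 gave 34.2 to 71.5. Liver LPS library 2 against LPS+MIC-1 library 2 gave 29.2, so each was closer to the other than to the rest of its own group. Among liver controls, library 1 stood apart (69.1 and 66.1 times against libraries 2 and 3, which gave 5.67), with a summed FPKM of 6 hepatocyte genes of 80500 against 41400 and 42300. By the study's text the liver libraries came from separate mice, and nothing in the labels ties the macrophage libraries to separate cultures. P-values in macrophages thus measure the spread between libraries, which may be technical. The ratio of 2.08 for liver LPS+MIC-1 libraries 1 and 3 lay inside the macrophage range of 1.47 to 2.15. Whether these liver libraries came from separate mice was not tested, so the spread behind the liver p-values may be partly technical too. Estimated reads per library were 13600000 to 17500000 in macrophages and 3570000 to 15100000 in liver, where the controls (3570000 to 8220000) were shallower than every treated library. Marker genes matched the labels, with a summed FPKM of 5 macrophage genes of 10900 to 13200 in the cultures and of 6 hepatocyte genes of 41400 to 80500 in liver, against 3.14 to 14.8 for the hepatocyte genes in the cultures.

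In macrophages, LPS raised 7 of the 10 genes and lowered Sesn1 when LPS library 2 was left out, and the largest rise was that of Gadd45b. Cdkn1a, Mdm2, Phlda3, Trp53inp1, Gadd45a and Gadd45g rose with it, by fitted folds of 2.53 to 6.58. With all 9 libraries none of the 10 passed. Calls in macrophages required an adjusted P-value below 0.01 (limma on log2(FPKM + 0.5), Benjamini-Hochberg over 9905 genes) and an absolute Log2FC above 1. Without LPS library 2, 34.2% of all genes tested passed, against 8 of the 10 members, and the median Log2FC was 1.80 over the members and -0.03 over all genes. With all 9 libraries the share was 0% of all genes and 0 of the members, the lowest adjusted P-value of any gene was 0.0777, and 4928 genes had an unadjusted P-value below 0.05. The LPS and control libraries did not overlap for 9 members without LPS library 2, against 85.6% of all genes, and for 6 members with it, against 33.3%.

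**Figure D1:**
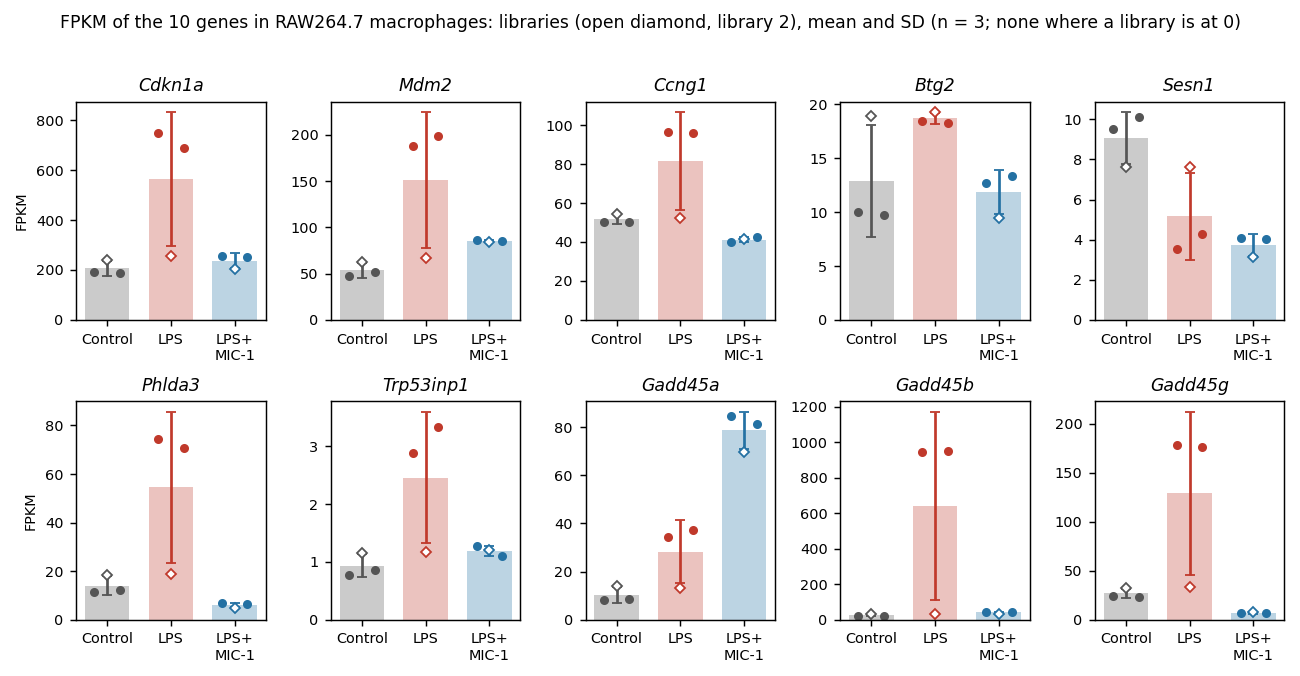
FPKM (y axes, linear and starting at 0) of each of the 10 genes in the 9 RAW264.7 libraries by treatment. Points are libraries, with library 2 of each treatment as an open diamond, and bars and whiskers are the mean and SD of 3 libraries. LPS library 2 sits at control level in every panel, for example at 30.2 FPKM for Gadd45b beside 946 and 948 in the other LPS libraries.

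Cdkn1a (mm9 chr17:29227924-29237667), which encodes the cyclin-dependent kinase inhibitor p21, was at 193, 240 and 187 FPKM in the control cultures, 748, 258 and 690 under LPS, and 256, 204 and 253 under LPS+MIC-1. LPS libraries 1 and 3 were the high ones, and all LPS+MIC-1 libraries lay near the controls. The Log2FC of LPS against control was 1.80 ± 0.14 without LPS library 2 (SE, adjusted P-value 1.34e-05 by limma), and with all 9 libraries it was 1.31 ± 0.37 (adjusted P-value 0.0777). LPS+MIC-1 against LPS gave -1.60 ± 0.14 (adjusted P-value 3.76e-05) without that library and -1.11 ± 0.37 (adjusted P-value 0.0685) with it. LPS+MIC-1 and control overlapped, with a Log2FC of 0.20 and a 95% interval from -0.08 to 0.49 without LPS library 2.

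Mdm2 (mm9 chr10:117125944-117147814), the ligase that removes p53, was at 46.9, 62.3 and 51.7 FPKM in controls, 188, 66.9 and 199 under LPS, and 86.8, 84.4 and 84.9 under LPS+MIC-1. The LPS+MIC-1 libraries lay between the controls and LPS libraries 1 and 3 without touching either. Mdm2, without LPS library 2, rose by a Log2FC of 1.85 ± 0.11 with LPS (adjusted P-value 4.92e-06) and fell by 1.17 on the log2 scale between LPS and LPS+MIC-1 (adjusted P-value 5.98e-05). Against control, LPS+MIC-1 gave a Log2FC of 0.68 ± 0.10, under the required change (adjusted P-value 0.000735, limma without LPS library 2). The values were 1.34 ± 0.38, -0.67 ± 0.38 and 0.68 ± 0.38 in that order with all 9 libraries, and none passed (adjusted P-values 0.0777, 0.229 and 0.222, limma).

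Phlda3 (mm9 chr1:137662696-137665713), whose product competes with Akt for membrane lipids, was at 11.4, 18.5 and 12.1 FPKM in controls, 74.3, 18.8 and 70.7 under LPS, and 6.72, 4.96 and 6.30 under LPS+MIC-1. All LPS+MIC-1 libraries were below all controls. Its Log2FC without LPS library 2 was 2.36 ± 0.21 for LPS against control and -3.50 ± 0.21 for LPS+MIC-1 against LPS, a fitted 11.3-fold fall (adjusted P-values 2.72e-05 and 8.03e-06, limma). The fall also passed with all 9 libraries, at -2.86 ± 0.49 (adjusted P-value 0.00723), though not after the removal of any 1 of the 8 others (adjusted P-values 0.0151 to 0.0319). Against control LPS+MIC-1 gave -1.14, which passed without LPS library 2 (adjusted P-value 0.00123) and not with it (0.125, limma). That library is in neither group, and with only the 2 groups compared the change passed (adjusted P-value 0.00319, limma). Leaving out control library 2, the highest control, brought that change to -0.93, under the required size, and averaging libraries 1 and 3 of each treatment ended its call (adjusted P-value 0.0168, limma without LPS library 2).

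Trp53inp1 (mm9 chr4:11083578-11101526), a p53-induced stress protein, was the lowest member in these cells, at 0.778, 1.16 and 0.863 FPKM in controls, 2.88, 1.17 and 3.33 under LPS, and 1.28, 1.20 and 1.10 under LPS+MIC-1. It rose with LPS when LPS library 2 was left out (Log2FC 1.34 ± 0.16, adjusted P-value 0.000144) and was lower with LPS+MIC-1 than with LPS (-1.09 ± 0.16, adjusted P-value 0.00061, limma), the latter not past the required size without LPS library 3 (-0.99). Neither passed with libraries 1 and 3 averaged (adjusted P-values 0.0127 and 0.0275) or with all 9 libraries (0.97 ± 0.31 and -0.72 ± 0.31, adjusted P-values 0.0777 and 0.13, limma). At these levels the pseudocount of 0.5 shrinks a change, and LPS+MIC-1 and control overlapped.

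Ccng1 (mm9 chr11:40562054-40568813), which encodes the p53-induced cyclin G1, was at 50.0, 54.5 and 50.2 FPKM in controls, 96.3, 52.3 and 95.8 under LPS, and 40.1, 41.4 and 42.3 under LPS+MIC-1. LPS libraries 1 and 3 were above and the LPS+MIC-1 libraries below all controls. Its LPS change of 0.89 ± 0.06 stayed under the required size (adjusted P-value 1.01e-05, limma without LPS library 2), and its fall from LPS to LPS+MIC-1 passed (-1.21 ± 0.06, adjusted P-value 5.38e-06). These were 0.60 ± 0.22 and -0.92 ± 0.22 with all 9 libraries, and neither passed (adjusted P-values 0.078 and 0.0256, limma). Btg2 (mm9 chr1:135971747-135975697), an antiproliferative protein that acts on mRNA deadenylation, was at 10.0, 18.9 and 9.78 FPKM in controls, 18.5, 19.3 and 18.3 under LPS, and 12.7, 9.50 and 13.4 under LPS+MIC-1. Control library 2 was as high as the LPS libraries, and Btg2 passed in no macrophage comparison with or without LPS library 2.

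Sesn1 (mm9 chr10:41530380-41628230), a sestrin that restrains mTORC1, was at 9.50, 7.61 and 10.1 FPKM in controls, 3.56, 7.65 and 4.27 under LPS, and 4.07, 3.13 and 4.02 under LPS+MIC-1. It was the member that went down with LPS and stayed down when MIC-1 was added. Its Log2FC without LPS library 2 was -1.11 ± 0.16 for LPS and -1.17 ± 0.14 for LPS+MIC-1, both against control (adjusted P-values 0.00037 and 0.000272, limma), the first not past the required size without LPS library 1. Neither passed with libraries 1 and 3 averaged (adjusted P-values 0.0164 and 0.0119) or with all 9 libraries (-0.82 ± 0.26 and -1.17 ± 0.26, adjusted P-values 0.0777 and 0.0166, limma). The change with LPS+MIC-1, a comparison that does not hold LPS library 2, passed with only the 2 groups compared (adjusted P-value 0.000682, limma). LPS+MIC-1 against LPS gave -0.06, with a 95% interval from -0.43 to 0.31 without LPS library 2.

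The 3 GADD45 genes parted from each other under LPS+MIC-1. Gadd45b (mm9 chr10:80392836-80394949) was at 21.1, 29.9 and 21.5 FPKM in controls, 946, 30.2 and 948 under LPS, and 45.1, 34.5 and 41.8 under LPS+MIC-1. LPS libraries 1 and 3 averaged 39.2 times the control mean and 23.4 times the LPS+MIC-1 mean, and every LPS+MIC-1 library was above every control. For the other 8 libraries the Log2FC was 5.28 ± 0.17 for LPS against control, -4.54 ± 0.17 for LPS+MIC-1 against LPS and 0.74 ± 0.15 for LPS+MIC-1 against control (adjusted P-values 6.06e-07, 1.97e-06 and 0.00352, limma), the last under the required size. These were 3.63 ± 1.17, -2.89 ± 1.17 and 0.74 ± 1.17 with all 9 libraries, and none passed.

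Gadd45g (mm9 chr13:51942047-51943837) was at 24.4, 32.4 and 23.5 FPKM in controls, 178, 33.0 and 176 under LPS, and 6.42, 8.07 and 6.48 under LPS+MIC-1. It rose with LPS and fell below the control level with LPS+MIC-1, where the highest library (8.07) was far under the lowest control (23.5). Without LPS library 2 the Log2FC was 2.72 ± 0.15 for LPS against control, -4.57 ± 0.15 for LPS+MIC-1 against LPS and -1.86 ± 0.14 for LPS+MIC-1 against control (adjusted P-values 3.86e-06, 1.45e-06 and 2.7e-05, limma). With all 9 libraries the fall from LPS to LPS+MIC-1 still passed (-3.77 ± 0.58, adjusted P-value 0.00488, limma). It no longer passed after the removal of any 1 of the 8 libraries other than LPS library 2 (adjusted P-values 0.0119 to 0.0262). Nor did it pass with only the 2 groups compared (0.0347) or with libraries 1 and 3 averaged (0.206, limma). The difference from control did not pass with all 9 libraries (adjusted P-value 0.0505). LPS library 2 is in neither of those groups, and with only the 2 groups compared the difference passed (adjusted P-value 0.000142, limma).

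Gadd45a (mm9 chr6:66985090-66987451) was at 8.20, 13.9 and 8.55 FPKM in controls, 34.5, 13.1 and 37.4 under LPS, and 84.7, 69.9 and 81.4 under LPS+MIC-1. It was the member that LPS+MIC-1 raised above LPS, and all LPS+MIC-1 libraries lay above all others. Against control its Log2FC with LPS+MIC-1 was 2.92 ± 0.19 without LPS library 2 and 2.92 ± 0.39 with all 9, and it passed in each (adjusted P-values 1.6e-05 and 0.00227, limma). Against LPS it was 1.12 ± 0.21 without LPS library 2 (adjusted P-value 0.00209) and 1.59 ± 0.39 with it (adjusted P-value 0.0256), the second not past the threshold. The first no longer passed without LPS library 1 or 3 as well (adjusted P-values 0.0184 and 0.0125), and the all-library rise over control no longer passed without control or LPS+MIC-1 library 1 or 3 (adjusted P-values 0.0144 to 0.0161). Gadd45a rose with LPS itself by 1.80 ± 0.21 (adjusted P-value 0.000119) without LPS library 2, against 1.33 ± 0.39 with it (adjusted P-value 0.0777, limma), which did not pass. Averaging libraries 1 and 3 ended the rise over LPS (adjusted P-value 0.0419, limma without LPS library 2).

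Between LPS and LPS+MIC-1 cultures, then, 7 members were lower and Gadd45a was higher without LPS library 2, and the fitted falls were largest for Gadd45g, Gadd45b and Phlda3. Of the members 2 passed with all 9 libraries, Gadd45g and Phlda3, both lower. The share of all genes past both thresholds was 23.3% without LPS library 2 and 3.87% with it, and the median Log2FC without it was -1.19 over the members and 0.01 over all genes. The groups did not overlap for 9 members without LPS library 2, against 80.3% of all genes, and for 6 with it, against 36.1%. Against control, LPS+MIC-1 called 4 members without LPS library 2 (Gadd45a higher, and Sesn1, Phlda3 and Gadd45g lower) and Gadd45a with it, beside 15.7% and 5.59% of all genes. Those groups did not overlap for 7 members, against 66.4% of all genes. The 3 comparisons share groups and are not independent of each other.

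The deposited FPKM of a macrophage library summed to 557136 to 1137533, and the 2 highest sums were those of LPS libraries 1 and 3. Scaling every library to the same sum shifted the median Log2FC of all genes from -0.03 to -0.93 for LPS against control and from 0.01 to 0.74 for LPS+MIC-1 against LPS (without LPS library 2), and every member with it. Under that scaling 4 members still passed for LPS against control (Gadd45b at 4.29, Gadd45g at 1.73, Phlda3 at 1.38 and Sesn1 at -1.99). The 4 that passed for LPS+MIC-1 against LPS were Gadd45g at -3.78, Gadd45b at -3.74, Phlda3 at -2.71 and Gadd45a at 1.91. The LPS changes of Ccng1 and Btg2 turned to -0.09 and -0.39, past the threshold under neither scaling. With all 9 libraries the same scaling brought the median of all genes to -0.65 and 0.44, and 0 and 3 members passed, the latter Gadd45g (-3.28), Phlda3 (-2.37) and Gadd45a (2.08). Among markers of other cells, the summed FPKM of 8 neutrophil genes was 1.55 to 2.62 in controls, 4.01 to 39.9 under LPS and 653 to 720 under LPS+MIC-1, and 1 of the 8, S100a8, made up nearly all of it (1.46 to 2.40, 3.56 to 39.2 and 651 to 718 FPKM) and alone had a mean above 1. Ltf and Retnlg were at 0 in all LPS+MIC-1 libraries. The cultures are of a single line, and a link between S100a8 and the members' values was not tested.

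**Figure D2:**
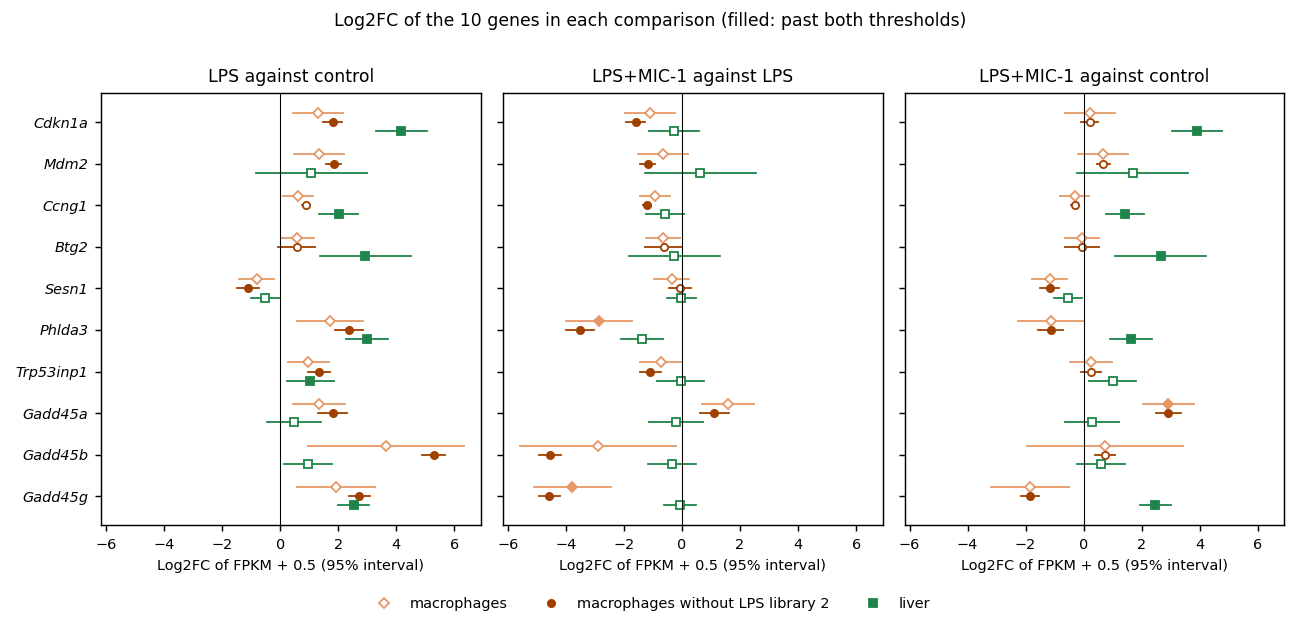
Log2FC (x axes, on FPKM + 0.5) of the 10 genes in the 3 comparisons for macrophages with all 9 libraries (diamonds), macrophages without LPS library 2 (circles) and liver (squares), with 95% intervals from limma. Filled symbols passed both thresholds. Gadd45g lies at -1.86 in macrophages and at 2.46 in liver for LPS+MIC-1 against control, and Gadd45a is the filled symbol right of 0 for LPS+MIC-1 against LPS.

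In liver, LPS raised 6 of the 10 genes at 16 h (Cdkn1a, Ccng1, Btg2, Phlda3, Trp53inp1 and Gadd45g), and no member passed for LPS+MIC-1 against LPS. Cdkn1a rose most, and Gadd45g was the most abundant member. Mdm2, Sesn1, Gadd45a and Gadd45b did not pass. Without control library 1, which stood apart, 6 members passed in each comparison with control, Mdm2 among them and Trp53inp1 not. Calls in liver required an adjusted P-value below 0.05 (limma, Benjamini-Hochberg over 10147 genes) and an absolute Log2FC above 1, and 24.6% of all genes passed for LPS against control. The median Log2FC was 1.54 over the members and 0.15 over all genes. The LPS and control libraries did not overlap for 8 members, against 45.0% of all genes. Liver is a mixture, so a lower level can come from fewer cells of a type or from less RNA per cell, and these cannot be told apart. The summed FPKM of 8 neutrophil genes went from 2.81 to 11.0 in controls to 340 to 441 under LPS and 186 to 452 under LPS+MIC-1, and none of the 8 was at 0 in all libraries of either treated group. That of 5 macrophage genes was 27.7, 41.7 and 30.3 in controls, 618, 122 and 600 under LPS and 122, 431 and 125 under LPS+MIC-1, with Ptprc at 0 in all controls and Emr1 in all LPS+MIC-1 libraries. Within that list, Lyz2 was at 41.4, 28 and 41.8 FPKM under LPS and 58.6, 19.1 and 56.7 under LPS+MIC-1. Csf1r was at 5.79, 8.73 and 5.49 under LPS and 6.85, 5.11 and 6.97 under LPS+MIC-1. Neither followed the order of the sum, which other genes of the list carried. Of the members, Ccng1, Phlda3, Gadd45a and Gadd45g had library 2 lowest under LPS and highest under LPS+MIC-1. For Cdkn1a, Btg2 and Trp53inp1 library 2 was lowest in both treated groups. For Sesn1 and Gadd45b it was highest under LPS and lowest under LPS+MIC-1, and for Mdm2 it was in the middle of both. The part of neutrophils and macrophages in the members' values was not tested.

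**Figure D3:**
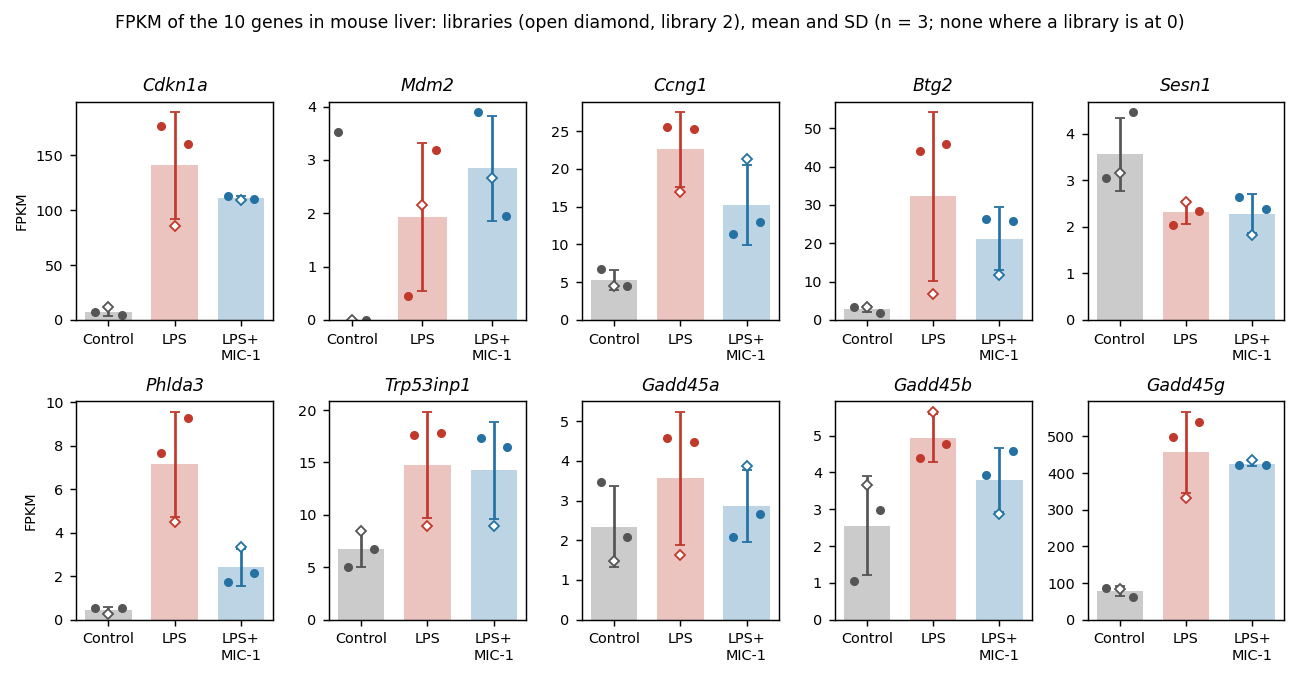
FPKM (y axes, linear and starting at 0) of each of the 10 genes in the 9 liver libraries by treatment. Points are libraries, with library 2 of each treatment as an open diamond, and bars and whiskers are the mean and SD of 3 libraries, left out for Mdm2 in controls, which is listed at 0 in 2 libraries. Cdkn1a goes from 4.10 to 11.8 FPKM in controls to 85.5 to 177 under LPS and 109 to 113 under LPS+MIC-1.

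Cdkn1a in liver was at 6.85, 11.8 and 4.10 FPKM in controls, 177, 85.5 and 160 under LPS, and 113, 109 and 110 under LPS+MIC-1. Every treated library was above every control, and the LPS+MIC-1 libraries lay inside the range of the LPS libraries. Against control, the Log2FC was 4.18 ± 0.38 for LPS and 3.90 ± 0.38 for LPS+MIC-1 (adjusted P-values 0.000501 and 0.000646, limma). LPS+MIC-1 against LPS gave -0.28, with a 95% interval from -1.15 to 0.60. Control library 2, the highest control for Cdkn1a, also had the highest summed FPKM of the LPS response genes among controls, at 7630 against 994 and 126. Ccl5, a gene of that list, was at 7.18, 18.4 and 19.7 FPKM in the controls, so other genes carried the sum. The Cdkn1a values of the controls correspond to about 68, 66 and 24 reads, and a link to the LPS response genes was not tested.

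Gadd45g in liver was at 86.3, 85.0 and 61.8 FPKM in controls, 499, 331 and 540 under LPS, and 421, 435 and 422 under LPS+MIC-1. The treated groups overlapped each other and not the controls. Its Log2FC was 2.53 ± 0.23 for LPS and 2.46 ± 0.23 for LPS+MIC-1 (adjusted P-values 0.000517 and 0.000592, limma), and the difference between these groups was -0.07, with a 95% interval from -0.60 to 0.47. Gadd45b was at 1.04, 3.65 and 2.98 FPKM in controls, 4.40, 5.65 and 4.77 under LPS, and 3.92, 2.87 and 4.59 under LPS+MIC-1. Its LPS libraries were all above the controls, but the change did not pass (Log2FC 0.94 ± 0.36, adjusted P-value 0.0715, limma). Gadd45a was at 3.46, 1.47 and 2.08 FPKM in controls, 4.57, 1.62 and 4.48 under LPS, and 2.08, 3.86 and 2.67 under LPS+MIC-1, with all groups overlapping.

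Phlda3 in liver was at 0.523, 0.264 and 0.517 FPKM in controls, 7.64, 4.50 and 9.26 under LPS, and 1.72, 3.36 and 2.15 under LPS+MIC-1. The 3 groups did not overlap, and the LPS+MIC-1 libraries lay between the controls and LPS. The control values correspond to only about 6.6, 1.9 and 3.8 reads by the estimated depth. Phlda3 passed against control for LPS (Log2FC 2.99 ± 0.32, adjusted P-value 0.000876) and for LPS+MIC-1 (1.61 ± 0.32, adjusted P-value 0.00723, limma). LPS+MIC-1 against LPS gave -1.38 ± 0.32, with an unadjusted P-value of 0.00213 and an adjusted P-value of 0.997 by limma. It was the 1 member of 10 whose LPS and LPS+MIC-1 libraries did not overlap, beside 9.75% of all genes.

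Ccng1 in liver was at 6.75, 4.46 and 4.47 FPKM in controls, 25.6, 16.9 and 25.3 under LPS, and 11.4, 21.3 and 12.9 under LPS+MIC-1. LPS+MIC-1 library 2 was higher than LPS library 2, and the other LPS+MIC-1 libraries were lower than every LPS library. Ccng1 rose with LPS (2.01 ± 0.29, adjusted P-value 0.00307) and was above control with LPS+MIC-1 (1.43 ± 0.29, adjusted P-value 0.00791, limma). Btg2 was at 3.31, 3.36 and 1.82 FPKM in controls, 44.0, 6.80 and 45.9 under LPS, and 26.3, 11.7 and 25.7 under LPS+MIC-1. Library 2 was the low one in each treated group, at 0.151 times the mean of the other LPS libraries. Its Log2FC was 2.93 ± 0.69 for LPS and 2.66 ± 0.69 for LPS+MIC-1 (adjusted P-values 0.0144 and 0.0185, limma), and without LPS library 1 or 3 the first no longer passed (adjusted P-values 0.056 and 0.0597). Leaving out control library 3 ended both calls (adjusted P-values 0.0529 and 0.0651), as did LPS+MIC-1 library 1 or 3 for the second (0.0632 and 0.0646, limma). Averaging libraries 1 and 3 of each treated group also ended both Btg2 calls (adjusted P-values 0.0875 and 0.0705, limma).

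Trp53inp1 in liver was at 5.06, 8.45 and 6.79 FPKM in controls, 17.6, 8.94 and 17.8 under LPS, and 17.3, 8.91 and 16.5 under LPS+MIC-1. Library 2 of each treated group stood next to the highest control. The LPS change only just passed (1.03 ± 0.35, adjusted P-value 0.0499, limma), and that of LPS+MIC-1 did not (0.99 ± 0.35, adjusted P-value 0.0553). The first no longer passed without any 1 of the control libraries, of LPS libraries 1 and 3 or of LPS+MIC-1 libraries 1 and 3 (adjusted P-values 0.0648 to 0.163), and the second passed without LPS+MIC-1 library 2 (1.29, adjusted P-value 0.0283). Sesn1 was at 3.04, 3.16 and 4.47 FPKM in controls, 2.04, 2.54 and 2.35 under LPS, and 2.65, 1.82 and 2.39 under LPS+MIC-1. All treated libraries were below all controls, and neither difference passed (Log2FC -0.52 and -0.54, adjusted P-values 0.0908 and 0.0816, limma). Mdm2 was listed at 3.53, 0 and 0 FPKM in controls, 0.441, 2.16 and 3.19 under LPS, and 3.90, 2.67 and 1.95 under LPS+MIC-1. No fold is given for Mdm2 in liver, since a listed 0 beside 3.53 in the same group can be a failed estimate. Without control library 1 the remaining controls are both listed at 0, and Mdm2 then passed against control for LPS and LPS+MIC-1 (adjusted P-values 0.0265 and 0.0104, limma).

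For LPS+MIC-1 against LPS in liver, 0% of all genes passed by limma (smallest adjusted P-value 0.0546), and 364 genes had an unadjusted P-value below 0.05. The members' median Log2FC was -0.23, beside -0.01 over all genes. For LPS+MIC-1 against control, 5 members passed, all higher (Cdkn1a, Ccng1, Btg2, Phlda3 and Gadd45g), beside 25.2% of all genes, and 7 did not overlap the controls, beside 54.6%. Scaling the liver libraries to the same sum moved the median Log2FC of all genes from 0.15 to -0.18 for LPS and from 0.15 to -0.43 for LPS+MIC-1, both against control. Under it Trp53inp1 (0.69 for LPS) and Ccng1 (0.81 for LPS+MIC-1) were under the required size, and Sesn1 fell with LPS+MIC-1 by 1.09 on the log2 scale (adjusted P-value 0.00984, limma).

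Genes around the members were counted from 6 lists. Their counts in macrophages without LPS library 2 stand beside 34.2% of all genes called for LPS against control, 23.3% for LPS+MIC-1 against LPS and 15.7% for LPS+MIC-1 against control, and those with all 9 libraries beside 0%, 3.87% and 5.59%. Trp53, which encodes p53 itself, was at 162, 151 and 164 FPKM in control cultures, 51.0, 167 and 47.0 under LPS, and 97.9, 124 and 101 under LPS+MIC-1. Without LPS library 2 it fell with LPS (Log2FC -1.69) and was higher with LPS+MIC-1 than with LPS (1.12). Of 9 tested regulators of p53, 0 rose and 5 fell with LPS, among them the checkpoint kinases Chek1 (-2.67) and Atr (-1.89) and the p53 phosphatase gene Ppm1d (-1.23). Trp53 was the 1 of the 9 that passed between LPS+MIC-1 and LPS, and Chek1 (-1.83) the 1 that passed between LPS+MIC-1 and control.

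Of 22 other p53 target genes tested in macrophages, 6 rose and 2 fell with LPS (without LPS library 2; median Log2FC 0.57), a share near the 34.2% of all genes, led by Ddit4 (Log2FC 2.90), which restrains mTORC1, the polo-like kinase Plk2 (2.74), the mitotic gene Ckap2 (-2.60) and Plk3 (2.09). Between LPS and LPS+MIC-1, 0 were higher and 8 lower (median -0.48, beside 0.01 over all genes), led by the pro-apoptotic Bbc3 (-2.10), Zmat3 (-1.91), the pro-apoptotic Pmaip1 (-1.65) and the receptor gene Eda2r (-1.57). Bbc3 was at 16.7, 17.4 and 14.1 FPKM in controls, 64.3, 20.1 and 54.3 under LPS, and 13.3, 14.7 and 12.3 under LPS+MIC-1, where it overlapped the controls. Against control, 5 were higher and 2 lower with LPS+MIC-1, led by Ddit4 (2.74), Ckap2 (-2.67), Plk3 (2.43) and Gtse1 (-2.32). With all 9 libraries the counts were 0 and 0 for LPS, 3 lower and 0 higher for LPS+MIC-1 against LPS (Pmaip1 -1.47, Aen -1.10 and Ephx1 -1.10), and 2 higher and 1 lower against control (Plk3, Sesn2 and Gtse1).

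Among CDK inhibitors other than Cdkn1a, 4 were tested in macrophages. Without LPS library 2, Cdkn2c rose (2.48) and Cdkn3, a cell-cycle phosphatase, fell (-2.88) with LPS, Cdkn2c was lower with LPS+MIC-1 than with LPS (-2.26), and Cdkn3 was lower with LPS+MIC-1 than in controls (-3.11). The list of cyclins and kinases that p21 restrains also holds Pcna, which is neither a cyclin nor a kinase. Of its 9 tested genes, 0 rose and 4 fell with LPS (median Log2FC -0.98, beside -0.03 over all genes). Ccna2, the S phase cyclin, was at 71.6, 60.0 and 72.4 FPKM in controls, 2.74, 60.4 and 2.59 under LPS, and 4.05, 7.19 and 3.51 under LPS+MIC-1. Its Log2FC against control was -4.43 for LPS and -3.72 for LPS+MIC-1. Cdkn1a with LPS+MIC-1 overlapped the controls, and a link between Cdkn1a and Ccna2 was not tested. Ccne1 (-1.27), Cdk4 (-1.12) and Cdk2 (-1.07) were the others with LPS, and 4 also fell with LPS+MIC-1 against control (Ccna2, Ccne1 at -1.27, Pcna at -1.21 and Ccnd1 at -1.11). Ccnd3 was lower with LPS+MIC-1 than with LPS (-1.35 without LPS library 2 and -1.17 with it).

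Of 6 tested GADD45 partners, 0 rose and 2 fell with LPS, Ccnb1 (-3.49) and Cdk1 (-2.71), the mitotic cyclin and kinase that GADD45 proteins bind. The same 2 fell with LPS+MIC-1 against control (-3.52 and -2.26), and 0 of the 6 passed between LPS+MIC-1 and LPS. Of 7 tested genes of the BTG and TOB family and related genes, 5 rose and 0 fell with LPS, led by Btg3 (2.70), Ccng2 (2.33), Trp53inp2 (2.09) and Phlda1 (1.98). Between LPS and LPS+MIC-1, Phlda1 was higher (1.90) and Btg3 (-1.65) and Tob1 (-1.05) lower. Phlda1 was at 10.8, 19.5 and 10.7 FPKM in controls, 53.6, 20.1 and 53.2 under LPS, and 231, 160 and 219 under LPS+MIC-1. That is the order Gadd45a had, and Phlda1 passed with all 9 libraries for LPS+MIC-1 against LPS (2.36) and against control (3.89). Against control 4 of the 7 were higher with LPS+MIC-1 without LPS library 2 (Phlda1, Trp53inp2 at 1.52, Ccng2 at 1.38 and Btg1 at 1.06). No gene of the 6 lists passed for LPS against control with all 9 libraries. Beside those named, the all-library counts were 1 cyclin or kinase each for LPS+MIC-1 against LPS (Ccnd3) and against control (Ccnd1), and 0 for the p53 regulators, CDK inhibitors and GADD45 partners.

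**Figure D4:**
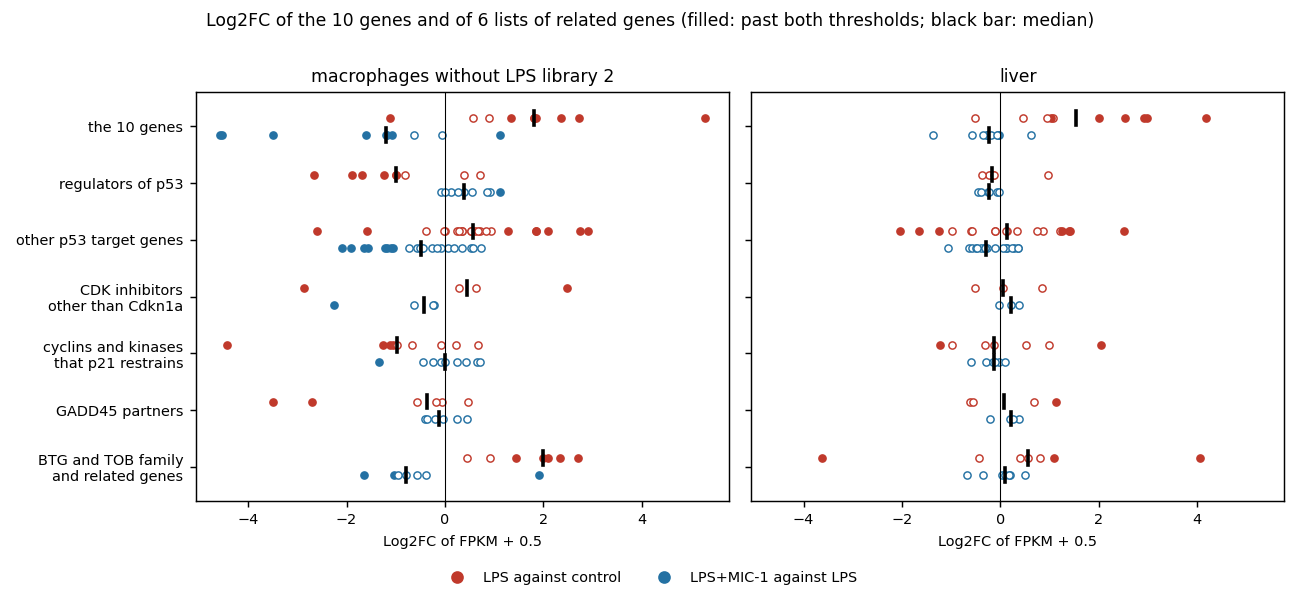
Log2FC (x axes, on FPKM + 0.5) of the 10 genes and of the tested genes of 6 lists in macrophages without LPS library 2 (left) and in liver (right), for LPS against control (red) and LPS+MIC-1 against LPS (blue). Filled points passed both thresholds and black bars are medians. In macrophages the median of the 10 genes is 1.80 for LPS and -1.19 for LPS+MIC-1 against LPS, and in liver 1.54 and -0.23.

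In liver, fewer of the listed genes passed the filter, and 0 genes of any list passed for LPS+MIC-1 against LPS. The counts against control stand beside 24.6% of all genes called for LPS and 25.2% for LPS+MIC-1. Of 6 tested p53 regulators 0 passed in any comparison. Of 18 other p53 targets, 4 rose and 3 fell with LPS, led by Ddit4 (2.52), the death receptor gene Tnfrsf10b (-2.05), Fdxr (-1.65) and the pro-apoptotic Bax (1.41). With LPS+MIC-1 against control, 3 rose and 3 fell, led by Ddit4 (2.88), Tnfrsf10b (-2.53), Plk3 (-1.51) and Plk2 (-1.16). Of 7 genes of the cyclin and kinase list, Cdk4 rose (2.04) and Cdk6 fell (-1.23) with LPS. With LPS+MIC-1 Cdk4 rose (1.75) and Ccnd2 (-1.59) and Cdk6 (-1.39) fell. Of 3 CDK inhibitors, 0 passed with LPS and Cdkn2d rose (1.08) with LPS+MIC-1. Of 4 GADD45 partners, Mapk14, the p38 kinase, rose (1.13 for LPS and 1.5 for LPS+MIC-1). Of 7 BTG and TOB family and related genes, 2 rose and 1 fell with LPS, and 3 rose and 1 fell with LPS+MIC-1. Phlda1 fell from 275, 163 and 165 FPKM in controls to 13.9, 25.6 and 10.2 under LPS and 16.3, 21 and 15.5 under LPS+MIC-1, and Trp53inp2 rose (1.09 and 1.60). Btg1 passed for LPS+MIC-1 alone (1.00), a difference between the 2 treatments that was not past the threshold itself. Btg3, listed at 0 in all liver controls, was at 25.7, 0.895 and 15.1 FPKM under LPS and 11.7, 2.43 and 3.37 under LPS+MIC-1.

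The genes whose pattern was most like that of Cdkn1a or Gadd45g were found by the mean absolute difference of their log2 deviations from the control mean over the 6 treated libraries of a table. In macrophages those nearest Cdkn1a were Fkbp1b (0.0535), Fxyd5 (0.0645) and Mpst (0.0785), and those nearest Gadd45g were Sdc1 (0.121), Psrc1 (0.365) and Cxcl11 (0.372). Sdc1, which encodes the proteoglycan syndecan, was thus much nearer Gadd45g than the next gene was. In liver those nearest Cdkn1a were the chemokine gene Cxcl1 (0.208), Chi3l3 (0.316) and Apool (0.323), and those nearest Gadd45g were Socs3 (0.0949), Tpi1 (0.144) and Spg21 (0.146). Socs3, an inhibitor of cytokine signalling through STAT proteins, is an LPS-responsive gene of liver. Apool was listed at 0 in 2 liver controls and Chi3l3 and Spg21 in 1 each, so their likeness rests on the pseudocount.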

How the data were processed

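RNA of 18 libraries (RAW264.7 macrophages and C57BL/6 liver, 9 each) was sequenced by the authors, who used Kallisto 0.45.0 to pseudoalign reads to RefSeq transcripts (mm9) and summed them to genes. The authors deposited FPKM, scaled between libraries with DESeq2 1.20.0, in 1 table per tissue. Their 6 tables of pairwise comparisons (mean counts, Log2FC, P-values) were not used. Columns carry the treatment and no replicate number, and every column was matched to a group. From the FPKM, log2(FPKM + 0.5) was fitted in limma 3.58.1 (R 4.3.3; eBayes with trend) over genes with a mean FPKM above 1, all 9 libraries of a table in 1 fit, and again for macrophages without LPS library 2. Called genes had an absolute Log2FC above 1 and a Benjamini-Hochberg adjusted P-value below 0.01 (macrophages) or 0.05 (liver). The fit was tested on simulated data first. The simulated libraries were drawn independently, and none stood apart. That test thus did not cover an outlying LPS library 2 or the closeness of libraries 1 and 3. Log2FC values understate changes of low genes. Depth was estimated from low values of genes with 1 coding transcript, which step in whole reads: 81.7 to 88.5% of such values up to 3 reads lay within 0.1 of a whole number, at an assumed fragment length of 200 bases.

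The members and lists were chosen with earlier results of these data known, as was leaving out LPS library 2. Named beside the 10 members were, per list and comparison, at most the 4 called genes with the largest absolute Log2FC, and the 3 genes most like Cdkn1a and Gadd45g. Tried as alternatives were other pseudocounts, filters and scalings, fits of only the groups compared, eBayes without trend, no minimum Log2FC and leaving out each library. Averaging libraries 1 and 3 was planned for the fit with all 9 macrophage libraries, and added after seeing the data for macrophages without LPS library 2 and for liver. Gene positions are GENCODE vM1 on mm9, and sequences before transcription starts are RefSeq on GRCm38.p6. The symbols Cd68, Adgre1, Cop1, Tigar, Pidd1, Pidd and Cdc2a matched no row.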

Additional observations from a re-analysis of the deposited data

Results flagged for a closer look

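For LPS+MIC-1 against control, 3 members lay on opposite sides in the 2 tissues, with every LPS+MIC-1 library below every control in macrophages and above every control in liver. These groups did not overlap for 66.4% of all genes in macrophages and 54.6% in liver. The share of all genes on opposite sides was not counted. Gadd45g had a Log2FC of -1.86 in macrophages (6.42, 8.07 and 6.48 FPKM against 24.4, 32.4 and 23.5) and of 2.46 in liver (421, 435 and 422 against 86.3, 85.0 and 61.8). Phlda3 had a Log2FC of -1.14 in macrophages and of 1.61 in liver, where its control values correspond to only about 6.6, 1.9 and 3.8 reads. The macrophage changes of Gadd45g and Phlda3 passed without LPS library 2 and did not pass with all 9 libraries. LPS library 2 is in neither group of this comparison and enters that fit through the shared spread. With only the 2 groups compared, both changes passed (adjusted P-values 0.000142 and 0.00319, limma). Ccng1 had a Log2FC of -0.32 in macrophages, under the required size, and of 1.43 in liver. The difference between the tissues was not tested, since the tables were scaled separately. The LPS dose and time of the sequenced cultures were not given in the sources used here.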

How the results depend on the processing

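No paired analysis was possible because the columns carry no replicate number. No result changed direction past its threshold, and 28 member values changed sign with neither value past it. With all 9 macrophage libraries, the members called went from 0 to 8 (genes, 0 to 3386) for LPS against control, from 0 to 8 (109 to 2310) for LPS+MIC-1 against LPS, and from 0 to 4 (141 to 1560) for LPS+MIC-1 against control when 1 library was left out, the highest values without LPS library 2. LPS+MIC-1 against LPS called 1 member without a filter. Fitting only the groups compared called 0 members and 5 genes for LPS+MIC-1 against LPS, and 4 and 1541 against control. With libraries 1 and 3 averaged, 0 members and 0 genes were called in these 2 comparisons. Without a minimum Log2FC they called 617 and 866 genes.

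Without LPS library 2, leaving out 1 more library gave 7 to 8 members (3229 to 3487 genes) for LPS, 6 to 8 (2110 to 2292) for LPS+MIC-1 against LPS and 3 to 4 (1404 to 1705) against control. Scaling to the same sum gave 4 members in each of the first 2 and 3843 genes for the second. No minimum Log2FC gave 6344, 5391 and 4551 genes, and 7 members against control. Averaging gave 2 members and 1004 genes against control.

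In liver, leaving out 1 library gave 4 to 6 members (1227 to 3510 genes) for LPS, 0 to 0 (0 to 35) for LPS+MIC-1 against LPS and 4 to 6 (1749 to 3111) for LPS+MIC-1 against control. Averaging libraries 1 and 3 of the treated groups gave 628 and 1352 genes against control. LPS+MIC-1 against LPS called 1 gene with a pseudocount of 1, 2 without a filter and 1 without the trend. Trp53inp1 with LPS passed under 5 of 19 alternatives (median of ratios scaling, a mean FPKM above 5, no minimum Log2FC, and without library 2 of LPS or of LPS+MIC-1). Causes were not tested. The shallow liver controls limit Phlda3 and Mdm2 there.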
